A study of Mus musculus with 3 samples.

Results

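The collagen genes were the 40 genes whose array name has the form of a collagen chain, Col, a type number, the letter a and a chain number. They were represented by 78 gene probes of the 41174 on a 2-colour Agilent mouse array, with 1 to 3 probes for a gene. By class they comprised 11 fibrillar collagens, 6 type IV collagens of basement membranes and 23 others. Of the 40 genes, 39 passed the filter on dim spots on the liver array, where Col12a1 was too dim in both channels, and 39 on the stomach array, where Col10a1 was too dim. The measured members were 39 of 25601 genes on the liver array and 39 of 25319 on the stomach array.

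The mice expressed activation-induced cytidine deaminase (AID) from a transgene. AID is the enzyme that mutates antibody genes in B cells, and the mice developed epithelial tumours. A liver tumour was hybridised with nontumour liver of the same AID Tg mouse, and a stomach tumour with nontumour stomach of the same AID Tg mouse, so that these control tissues carried the transgene too. A lung tumour of an AID Tg mouse was set against normal lung of a Wt (wild-type) mouse, so that in lung the transgene and the tumour cannot be told apart. Each organ had 1 array, with no replicates and no exchange of dyes, and the promoter of the transgene and the age of the mice were not given in the sources used here. Scanner values were used for liver and stomach, and lung values come from the lists of up- and downregulated spots in the authors' deposited table.

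All values are log2 ratios of the Cy5 to the Cy3 channel. Genes brighter in Cy5 are called Cy5-high and genes brighter in Cy3 Cy3-high. The direction was not settled: the sample labels assign Cy3 to the tumours, but the authors' deposited table files Cy5-high spots under its headings for genes up in tumours. Cy5 was thus the likely tumour channel by those headings and by the design text that refers to them, and by the dye labels every sign would turn. A single array per organ allows no test, so no p-value is given, and sizes were read against the spread between probes of a gene. The raw Cy3 and Cy5 signals of Alb, the hepatocyte product albumin, were 65300 and 65200 (both saturated) on the liver array against 170 and 191 on the stomach array, and those of the pepsinogen gene Pgc were 60600 and 10900 on the stomach array against 249 and 272 on the liver array, as the tissue labels state.

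Collagens are secreted proteins whose chains wind into triple helices. The fibrillar types I, II, III, V and XI assemble into the banded fibres that give tissues tensile strength, and in liver and stomach they are made mainly by fibroblasts and stellate cells. Type IV collagen forms the sheet of basement membranes under epithelia and around vessels. Other members coat fibrils, form short networks, span the plasma membrane, or, like types XV and XVIII, carry sugar chains in basement membrane zones. Cleavage of type XVIII releases endostatin, an inhibitor of vessel growth. Before secretion, chains are hydroxylated and folded by a set of enzymes and chaperones, and afterwards they are trimmed and crosslinked.

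The promoters of 5 collagen genes are shown because these genes had the highest liver ratio, by gene mean (Col1a2) or brightest probe (Col3a1), or lay past 2-fold in stomach (Col7a1, Col17a1 and Col18a1). Sequences are from RefSeq (build GRCm38.p6), cover the 250 bases before the start of transcription, and run 5′ to 3′ on the strand of the gene. Of the 40 collagen genes, 32 had an entry. Capitals mark matches on either strand to the CCAAT box (CCAAT), the TATA box (TATAAA), the GC box core (GGGCGG) and the AP-1 site (TGANTCA), and no marked matches overlap. The motifs are held by 34.0%, 12.4%, 33.0% and 6.8% of the same window of 32619 promoters, in that order. Col18a1 has 2 listed starts.
Col1a2 (chr6:4505368-4505617, plus strand): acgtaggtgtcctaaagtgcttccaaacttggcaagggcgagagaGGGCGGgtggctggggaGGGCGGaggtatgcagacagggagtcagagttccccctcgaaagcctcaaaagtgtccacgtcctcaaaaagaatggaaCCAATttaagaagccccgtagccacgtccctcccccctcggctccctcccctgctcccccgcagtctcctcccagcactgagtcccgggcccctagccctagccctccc
Col3a1 (chr1:45311288-45311537, plus strand): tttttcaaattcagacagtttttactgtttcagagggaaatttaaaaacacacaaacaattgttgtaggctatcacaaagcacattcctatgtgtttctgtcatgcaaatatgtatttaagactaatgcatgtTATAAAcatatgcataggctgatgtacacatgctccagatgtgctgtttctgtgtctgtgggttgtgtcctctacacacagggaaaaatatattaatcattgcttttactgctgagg
Col7a1 (chr9:108953336-108953585, plus strand): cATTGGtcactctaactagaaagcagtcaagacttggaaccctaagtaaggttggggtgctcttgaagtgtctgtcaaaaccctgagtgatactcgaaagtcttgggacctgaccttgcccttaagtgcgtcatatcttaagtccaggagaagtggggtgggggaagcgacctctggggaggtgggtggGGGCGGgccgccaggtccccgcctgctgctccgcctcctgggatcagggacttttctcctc
Col17a1 (chr19:47692043-47692292, minus strand): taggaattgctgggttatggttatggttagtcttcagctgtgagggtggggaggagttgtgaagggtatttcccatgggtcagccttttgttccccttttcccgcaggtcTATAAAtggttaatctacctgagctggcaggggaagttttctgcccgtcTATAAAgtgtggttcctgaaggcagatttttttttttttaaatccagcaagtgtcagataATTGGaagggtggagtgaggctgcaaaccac
Col18a1, start 1 (chr10:77166531-77166780, minus strand): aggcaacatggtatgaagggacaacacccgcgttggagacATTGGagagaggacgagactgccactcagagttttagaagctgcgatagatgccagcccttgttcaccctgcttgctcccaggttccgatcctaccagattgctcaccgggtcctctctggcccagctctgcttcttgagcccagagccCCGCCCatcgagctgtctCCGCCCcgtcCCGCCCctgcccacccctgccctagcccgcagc
Col18a1, start 2 (chr10:77113706-77113955, minus strand): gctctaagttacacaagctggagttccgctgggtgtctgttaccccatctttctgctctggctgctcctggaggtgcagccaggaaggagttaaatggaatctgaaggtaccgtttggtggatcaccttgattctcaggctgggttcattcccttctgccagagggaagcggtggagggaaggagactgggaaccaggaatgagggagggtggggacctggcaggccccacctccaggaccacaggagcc

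The Col1a2 window held 1 CCAAT box and 2 GC boxes, and the Col3a1 window 1 TATA box. The Col7a1 window held 1 CCAAT box and 1 GC box, and the Col17a1 window 2 TATA boxes and 1 CCAAT box. Start 1 of Col18a1 had 1 CCAAT box and 3 GC boxes, and none of these letters occurred before start 2. A match describes the sequence and is not a measured binding site.

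Most collagen probes were dim. The median raw signal of the 78 probes was 172.5 in Cy3 and 142.5 in Cy5 on the liver array, against 127 and 67.6 for the median negative control. The stomach values were 170.5 and 149, against 119 and 68.4. Probes well above background in both channels numbered 59 in liver and 61 in stomach, 6 and 5 were above background in neither, and none was saturated. Probes of the same collagen gene differed by a pooled standard deviation (SD) of 0.23 log2 units in liver (25 genes) and 0.42 in stomach (26 genes). In 18 of the 28 genes with several probes, on either array, the probe nearest the 3′ end of the gene was the brightest.

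**Figure D1:**
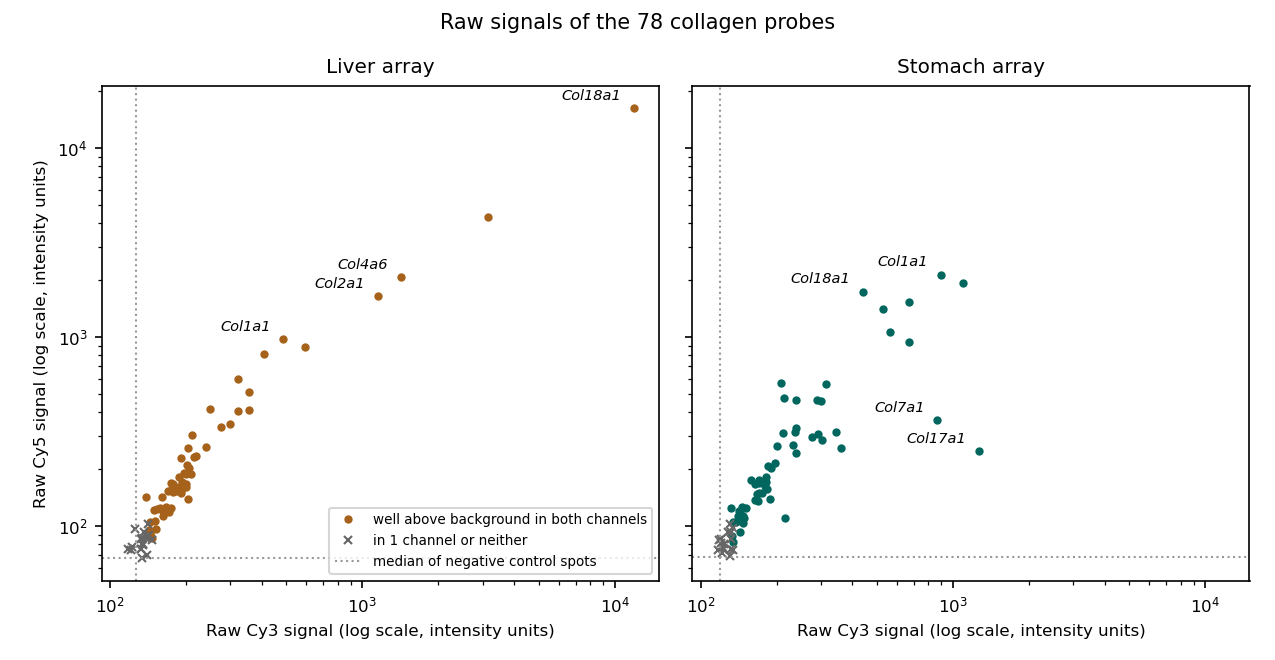
Raw Cy5 signal against raw Cy3 signal of the 78 collagen probes on the liver and the stomach array, both on log axes in scanner intensity units; circles are probes well above background in both channels, crosses the others, and dotted lines the median of the negative control spots. A Col18a1 probe is the brightest in liver, at 11900 in Cy3 and 16200 in Cy5, while the stomach panel holds Col7a1 and Col17a1 probes far to the Cy3 side.

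In the liver pair, collagen ratios were small and mostly on the Cy5 side. The chains of type I and type III collagen and Col14a1, which coats fibrils, had the clearest Cy5-high signals, at about 1.6-fold by their brightest probes. As means over probes, Col1a1, Col3a1 and Col14a1 were 1.26-fold, 1.16-fold and 1.20-fold Cy5-high. No collagen gene reached 2-fold in either direction, where 0.152% of all genes were Cy5-high and 0.0703% Cy3-high. At 1.5-fold, 1 of 39 collagens was Cy5-high, against 0.855% of all genes, and none Cy3-high, against 0.508%. Ratios above 0 were found for 29 of 39 collagens, against 52.9% of all genes, and the median was 0.09 against 0.01 over all genes. With the array centred on its median and no loess curve, 24 of 39 lay above 0 and the median was 0.0454 against 0.0331.

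Col1a2, the second chain of type I collagen, had raw signals of 408 in Cy3 and 816 in Cy5. Its normalised ratio was 0.66 (1.58-fold, scanner error 0.19, 1 measured probe on chromosome 6 at 4493505 to 4493564), and it was the collagen past 1.5-fold. A second Col1a2 probe was well above background in neither channel and was left out by the filter on dim spots. With no filter on signal the Col1a2 mean was 0.51, and no liver collagen was past 1.5-fold. Col1a1, the main chain of type I collagen, gave 486 and 976 at its brightest probe (chromosome 11, 95060800 to 95060859), a ratio of 0.63. Its other 2 probes read 158 and 124 and 141 and 103, close to the negative controls, with ratios of 0.10 and 0.29. The mean over the 3 probes was 0.34 (SD 0.27). The Cy5-high signal of Col1a1 thus rested mainly on its bright probe.

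Col3a1, the chain of type III collagen that accompanies type I in liver scars, showed the same picture. Its brightest probe (chromosome 1, 45585395 to 45585454) had signals of 320 in Cy3 and 601 in Cy5 and a ratio of 0.69, and its other probes had ratios of 0.01 and -0.04, for a mean of 0.22 (SD 0.41). Col14a1 read 248 and 418 at its brighter probe, a ratio of 0.67 (chromosome 15, 55583816 to 55583875), and -0.14 at a probe not well above background in Cy3, for a mean of 0.27 (SD 0.57). Only the bright probes of these genes separated the channels. Taking the brightest probe of each gene, 5 of 39 collagens were at least 1.5-fold Cy5-high, namely Col1a1, Col1a2, Col3a1, Col14a1 and Col15a1, against 1.17% of all genes, and none was Cy3-high, against 0.645%. The Col15a1 probe that made this count was dim, with 139 in Cy3 and 143 in Cy5 and a ratio of 0.64. The other Col15a1 probe had -0.16, for a mean of 0.24 (SD 0.57).

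The authors' deposited table lists 4 of the 78 collagen spots (5.13%) as Cy5-high in liver, where it lists 1.25% of all gene spots, and no collagen spot as Cy3-high, where it lists 1.04%. In the authors' deposited table these 4 had ratios of 0.70 for Col1a1, 0.72 for Col1a2, 0.78 for Col3a1 and 0.79 for Col14a1. These values equal the scanner software's own ratios of the same spots.

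The fibrillar class as a whole had a median of 0.12 in liver, with 10 of 11 members above 0. After Col1a2 and Col1a1, Col5a3, a chain of the type V collagen that helps to start fibrils, had 0.25 (SD 0.01 between 2 probes). Col2a1, the main cartilage collagen, had 0.18 (SD 0.23 between 3 probes), Col24a1 0.12, Col5a1 0.11 and Col27a1 0.09. Col11a2 and Col11a1, chains of cartilage fibrils, had 0.03 and 0.00, and Col5a2 had -0.05. Except for Col5a3, these smaller values lay within the pooled SD between probes.

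Type IV collagen in liver had a median of 0.14, with 5 of 6 chains above 0. Col4a4, a chain of specialised basement membranes such as that of the kidney filter, had 0.36 (SD 0.31 between 2 probes), and Col4a1, a chain found in nearly all basement membranes, had 0.28 (SD 0.23). Col4a5 had 0.21 (scanner error 1.18), Col4a2, the partner of Col4a1, 0.08 and Col4a3 0.06, while Col4a6 had -0.01. As means over probes, Col4a4 and Col4a1 were larger than the pooled SD of 0.23, and the other chains were not. At their brightest probes, Col4a4 and Col4a1 had 0.14 and 0.12, within that SD. With the array centred on its median and no loess curve, the class median was 0.06.

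The other collagens in liver had a median of 0.08, with 14 of 22 above 0, which turned to -0.06 with median centring alone. Col6a1, a chain of the beaded filaments around cells, had 125 in Cy3, not well above background there, and 96 in Cy5. Its ratio was 0.52 (scanner error 2.61) and its bound 1.38-fold Cy5-high. Col10a1, the collagen of growth cartilage, was likewise dim in Cy3, with a ratio of 0.30 (scanner error 5.55) and a bound of 1.1-fold Cy5-high. Both scanner errors were larger than the ratios, so neither bound is a firm lower limit. With median centring alone, Col6a1 fell to a ratio of 0.21 and Col10a1 turned to -0.06, and these bounds were computed with the loess normalization alone. Such a bound sets the bright channel over the higher of the dim channel and the lowest signal well above background, after normalization of both channels, and is open to dye bias. The partners of Col6a1 in type VI collagen, Col6a3 and Col6a2, had 0.11 and 0.07.

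Col18a1, the chain of type XVIII collagen, was by far the brightest collagen in liver, where hepatocytes are a known source. Its probes (chromosome 10, 76707663 to 76707722 and 76707908 to 76707967) had raw signals of 11900 in Cy3 and 16200 in Cy5, and 3160 and 4290. Their normalised ratios were -0.22 and -0.18, a mean of -0.20 (SD 0.03), which turned to 0.19 with median centring alone. The sign of the Col18a1 ratio in liver was thus set by the normalization. The lowest collagen on the liver array was Col8a2, a chain of the type VIII network of vessels and cornea, at -0.42 (scanner error 0.63, with 204 in Cy3 and 139 in Cy5), and its partner Col8a1 had 0.09.

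The remaining liver collagens lay close to 0. Col20a1, Col16a1 and Col22a1, fibril-associated collagens, had 0.08, 0.09 and 0.08. Of the type IX chains of cartilage, Col9a1 had 0.01, Col9a2 -0.06 and Col9a3 -0.14. The membrane-spanning collagens Col23a1, Col13a1, Col25a1 and Col17a1 had 0.11, 0.09, -0.10 and -0.16, and Col7a1 had 0.03. Col19a1 had -0.12 and Col28a1 -0.14. None of these exceeded the pooled SD between probes.

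**Figure D2:**
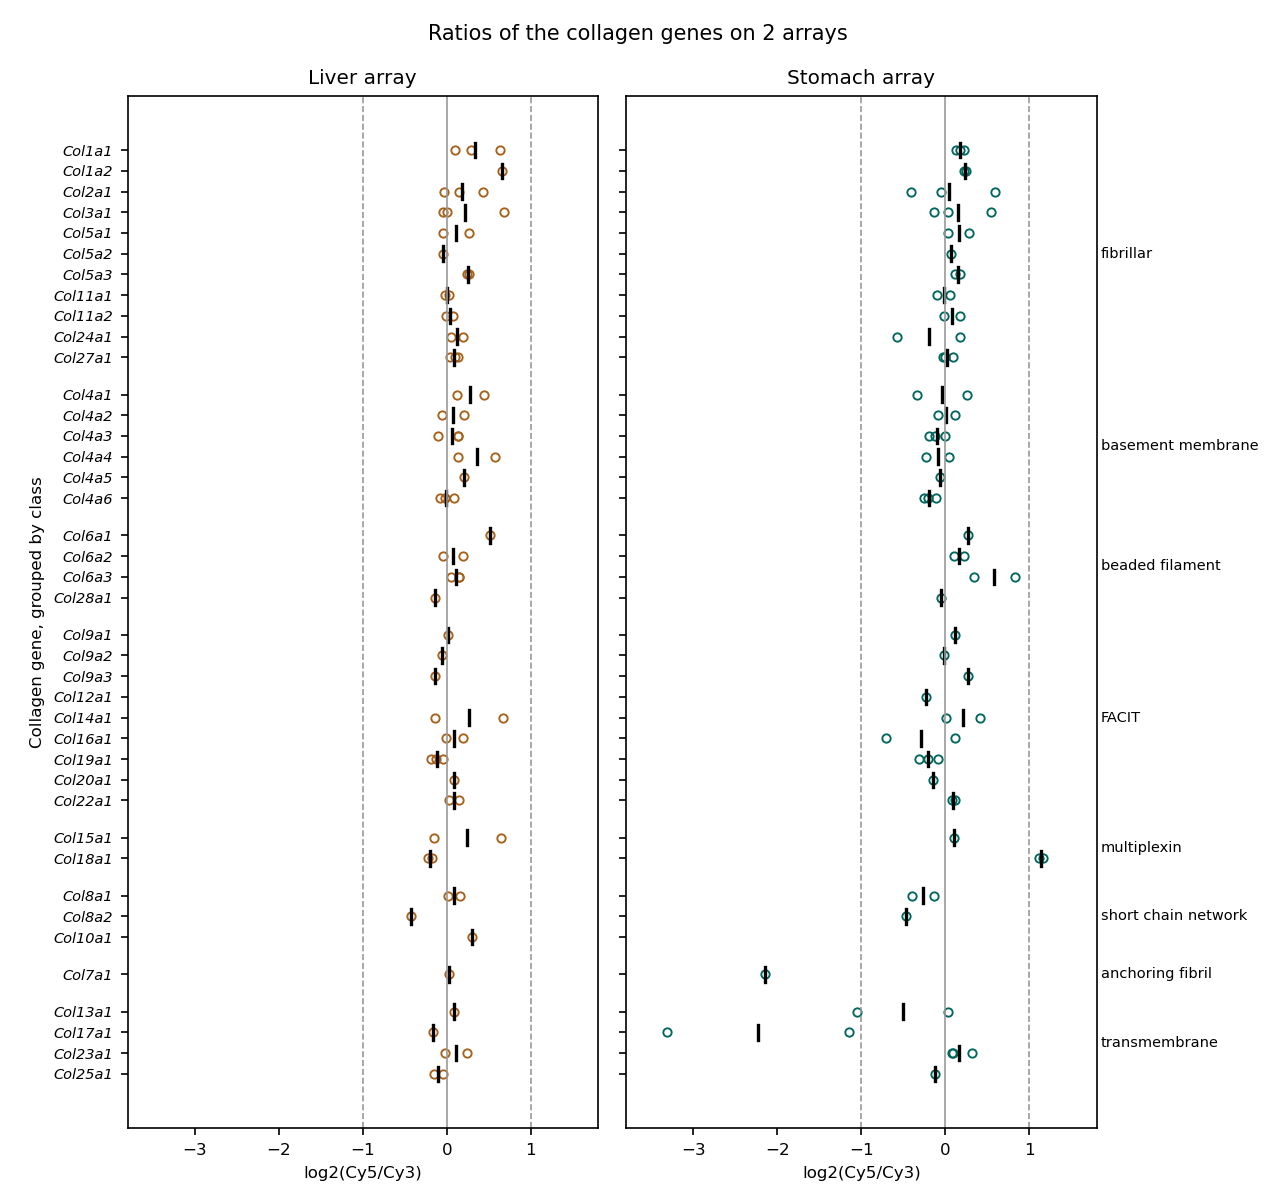
log2(Cy5/Cy3) of each collagen gene on the liver (left) and stomach (right) array, grouped by class; circles are single measured probes, the black tick is the mean over probes, and dashed lines mark 2-fold. No liver gene reaches 2-fold, whereas in stomach Col18a1 lies at 1.14 and Col7a1 and Col17a1 lie at -2.15 and -2.23.

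Markers of fibroblasts and stellate cells, the usual makers of types I and III, also had small ratios, mostly on the Cy5 side, in the liver pair. Of 10 markers, 9 had ratios above 0, against 52.9% of all genes. At 1.5-fold 3 were Cy5-high, against 0.855% of all genes, and none reached 2-fold. The median of the 10 markers was 0.26, and their summed normalised level was 2204.8 in Cy3 and 3016.7 in Cy5. Vim, an intermediate filament of mesenchymal cells, had 0.68, Dcn 0.64 and the growth factor receptor gene Pdgfrb 0.63, while Fap had -0.15. All 10 markers were well above background in at least 1 channel. Of 8 endothelial markers, 7 had ratios above 0, with a median of 0.17. The 4 measured hepatocyte markers had a median of -0.15, with 1 above 0 and 3 below. The summed level of all 5 hepatocyte markers was 0.732 times as high in Cy5 as in Cy3. That sum includes Alb, which was saturated in both channels, so it is no measure of the difference. In bulk tissue, fewer cells of a type and less RNA per cell cannot be told apart, and the part of these cells in the collagen ratios was not tested.

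In the stomach pair, a few single collagens had large ratios, while the class medians were small. Col18a1 was Cy5-high on both of its probes, and Col17a1 and Col7a1, which anchor stratified epithelium to its basement membrane, were Cy3-high by more than 4-fold. Of 39 collagens, 1 was at least 2-fold Cy5-high, where 0.873% of all genes were, and 2 were Cy3-high, where 1.42% were. At 1.5-fold the collagen counts were the same, 1 and 2, against 3.23% and 3.29% of all genes. Ratios above 0 were found for 20 of 39, against 50.2% of all genes, with a median of 0.01 against 0.00.

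Col18a1 had raw signals of 439 in Cy3 and 1740 in Cy5 at the probe that was brightest in liver, and 209 and 570 at the other. The ratios were 1.16 and 1.12, a mean of 1.14 (2.20-fold, SD 0.03 between 2 probes). Both probes lay on the same side by more than the spread between them, and over 7 other settings the gene stayed between 1.03 and 1.62. In raw signal these probes were far dimmer here than on the liver array in both channels.

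Col17a1, a transmembrane collagen of the hemidesmosomes that fix basal keratinocytes, had 1270 in Cy3 and 250 in Cy5 at one probe (chromosome 19, 47546901 to 47546960) and 217 and 110 at the other (47547213 to 47547272). Their ratios were -3.31 (9.93-fold) and -1.15 (2.22-fold), and the mean was -2.23 (SD 1.53). Col7a1, the collagen of anchoring fibrils below the same cells, had 867 in Cy3 and 364 in Cy5 and a ratio of -2.15 (4.44-fold, scanner error 0.26, 1 probe on chromosome 9 at 108695073 to 108695132). Both genes were at least 2-fold Cy3-high at every measured probe, and over 7 other settings Col17a1 ranged from -3.31 to -1.95 and Col7a1 from -2.41 to -1.64.

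Squamous epithelium markers were Cy3-high beside them. Mouse stomach has a forestomach lined by such epithelium. All 6 markers of the list were at least 2-fold Cy3-high, against 1.42% of all genes. Their median was -1.86 and their summed level 32605.3 in Cy3 and 4624 in Cy5. The probes of Krt13 (-1.56, SD 2.66) and Trp63 (-1.62, SD 2.19) disagreed widely, so that these calls rest on 1 of 2 probes each. The basal keratin genes Krt5 and Krt14 had -2.11 and -1.61 and the cornified layer gene Lor -4.20. The gastric gland markers Atp4b, Atp4a and Pgc were Cy3-high as well, at -4.91, -4.18 and -4.13, and the summed level of that list of 5 was 236579.5 in Cy3 and 12477.9 in Cy5. The part of unequal tissue layers in the Col17a1 and Col7a1 ratios was not tested.

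Col13a1, another transmembrane collagen, had 359 in Cy3 and 259 in Cy5 at its brighter probe and a ratio of -1.05 (chromosome 10, 61356987 to 61357046). A second probe, not well above background in Cy3, had 0.04, so that the mean was -0.51 (SD 0.77). Col16a1, which sits on fibrils, had -0.70 at its brighter probe, with 345 and 315, and a mean of -0.29 (SD 0.58), which turned to 0.27 with the scanner software's ratios. Col24a1, a minor fibrillar collagen, had -0.58 at its brighter probe, with 303 and 285, and a mean of -0.20 (SD 0.53), which turned to 0.46 likewise. For these 3 genes the bright and the dim probe lay apart by more than the mean. By the brightest probe of each gene, 2 collagens were at least 1.5-fold Cy5-high, against 4.29% of all genes, and 4 Cy3-high, against 3.95%.

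With the loess normalization, types I and III were less separated in the stomach pair than in the liver pair, although their brightest probes were brighter. With median centring alone, Col1a2 had 0.96 in liver and 0.33 in stomach, but Col1a1 had 0.33 and 0.30 and Col3a1 0.22 and 0.23. Col1a2 had 1 measured probe in liver and 2 in stomach. The difference between the organs was not tested. The brightest Col1a1 probe had 895 in Cy3 and 2140 in Cy5 and a ratio of 0.22, and the gene's mean was 0.17 (SD 0.05 between 3 probes). Col1a2 had 671 and 1540 at its brighter probe and a mean of 0.24 (SD 0.02 between 2 probes). Col3a1 had 530 and 1410 at its brightest probe, a ratio of 0.55, and a mean of 0.15 (SD 0.35). Across the fibrillar class the median was 0.08, with 9 of 11 above 0. Col5a1, Col5a3 and Col5a2 had 0.16, 0.15 and 0.07, Col11a2 0.08, Col2a1 0.04, Col27a1 0.02 and Col11a1 -0.02.

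Col6a3, the long chain of type VI collagen, was the next Cy5-high member, with 215 in Cy3 and 474 in Cy5 at its best probe and a ratio of 0.82 (chromosome 1, 90671098 to 90671157). A second probe, dim in Cy3, had 0.34, for a mean of 0.58 (SD 0.35), and its last probe was above background in neither channel. Its partners Col6a1 and Col6a2 had 0.27 and 0.17. The 3 type VI chains among the 40 collagens thus lay on the Cy5 side, as they also did over 7 other settings.

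Type IV chains in stomach lay at or below 0, from -0.19 for Col4a6 to 0.01 for Col4a2, with a median of -0.08 that turned to 0.12 with median centring alone. Col4a3, Col4a4, Col4a5 and Col4a1 had -0.10, -0.09, -0.06 and -0.04. Of the others, the type VIII chains Col8a2 and Col8a1 had -0.47 and -0.27, and both kept their sign over 7 other settings. Col12a1, not well above background in Cy5, had -0.23 (scanner error 4.68). Col9a3 and Col9a1, not well above background in Cy3, had 0.27 and 0.12 (scanner errors 2.25 and 2.62). With median centring alone Col9a3 and Col9a1 turned to -0.05 and -0.25. Col14a1 had 0.21 (SD 0.28 between 2 probes), which turned to -0.10 with median centring alone. Col23a1 had 0.16, Col15a1 0.10, Col22a1 0.09, Col9a2 -0.02, Col28a1 -0.05, Col25a1 -0.12, Col20a1 -0.14 and Col19a1 -0.20.

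The authors' deposited table lists 5 collagen spots (6.41%) as Cy5-high in stomach, where it lists 4.0% of all gene spots, and 6 (7.69%) as Cy3-high, where it lists 3.33%. The Cy5-high ratios in the authors' deposited table were 1.27 and 1.31 for Col18a1, 1.13 for Col6a3, 0.75 for Col2a1 and 0.57 for Col3a1. The Cy3-high ratios in the authors' deposited table were -3.75 and -2.20 for Col17a1, -2.41 for Col7a1, -1.34 for Col13a1, -0.87 for Col16a1 and -0.75 for Col24a1. These are the scanner software's ratios, which shrink dim spots less than the ratios above.

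Muscle markers also differed in the stomach pair. Of 8 smooth muscle and pericyte markers, 4 were at least 2-fold Cy3-high, against 1.42% of all genes. All 8 had ratios below 0, with a median of -1.26, and their summed level was 19120 in Cy3 and 6439.7 in Cy5. Cnn1, Myh11 and Des had -2.51, -2.09 and -1.99. Fibroblast and stellate markers had a median of 0.09 over 9 measured, with Pdgfrb at 0.41 and Dcn at -0.48, and summed levels of 2992.8 and 2895.6. Their part in the collagen ratios was not tested.

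In lung, the authors' deposited table placed collagens on both sides, with Col18a1 high in Cy5 and type IV chains high in Cy3. The authors' deposited table lists 7 collagen spots of 5 genes (8.97% of 78) as Cy5-high, where it lists 5.51% of all gene spots, and 14 spots of 12 genes (17.9%) as Cy3-high, where it lists 9.78%. The lists of the authors' deposited table start at 2-fold for lung and at 1.35-fold for liver and stomach, so their counts cannot be compared between organs. A collagen outside the lung lists of the authors' deposited table has no value here.

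Col18a1 was the collagen with the largest ratio in the lung lists of the authors' deposited table. Its processed signals in the authors' deposited table were 4680 in Cy3 and 53800 in Cy5 at one probe and 1540 and 16200 at the other. The listed ratios in the authors' deposited table were 3.52 (11.5-fold) and 3.39 (10.5-fold). Both probes therefore lay on the Cy5 side, as in stomach, while in liver they lay at -0.22 and -0.18.

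The other Cy5-high collagens of lung had much smaller ratios in the authors' deposited table. In the authors' deposited table, Col8a1, which with Col8a2 forms hexagonal networks, had 1.63 and 1.08 at its probes, with signals of 624 and 1930 and of 3490 and 7380. Col1a1 had 1.49 in the authors' deposited table, with 590 and 1660, at a probe that was dim on the liver and stomach arrays and not the probe listed for liver. Col19a1, a fibril-associated collagen, had 1.13 in the authors' deposited table, with 180 and 392, and Col5a2 had 1.02, with 1180 and 2390. Neither Col1a2 nor Col3a1 is among the lung lists of the authors' deposited table.

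Type IV chains made up 4 of the 12 Cy3-high collagens of lung in the authors' deposited table. In the authors' deposited table, Col4a4 had -3.28 (9.68-fold), with signals of 4810 in Cy3 and 496 in Cy5, and Col4a6 had -2.52, with 1730 and 301. These values come from 1 of 2 Col4a4 probes and 1 of 3 Col4a6 probes. Col4a5 had -2.05 in the authors' deposited table, with 2010 and 483, and Col4a3 had -1.75 and -1.48 at 2 probes, with 1110 and 330 and with 1130 and 405. Col4a3, Col4a4 and Col4a5 form the type IV network of the alveolar basement membrane. Col4a1 and Col4a2, the chains of basement membranes in general, are not listed for lung in the authors' deposited table.

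The other Cy3-high collagens of lung in the authors' deposited table came from several classes. In the authors' deposited table, Col8a2 had -3.00, with signals of 3740 in Cy3 and 467 in Cy5, so that the type VIII chains Col8a1 and Col8a2 were listed on opposite sides. Among fibril-associated collagens, Col14a1 had -2.48, with 3660 and 655, and Col16a1 -1.59, with 6220 and 2060, in the authors' deposited table. Among transmembrane collagens, the authors' deposited table gives -2.44 for Col13a1, with 5500 and 1020, -2.35 and -2.32 for Col23a1, and -1.06 for Col17a1, with 778 and 374. Col24a1 had -2.20 and Col6a1 -1.18 in the authors' deposited table, with signals of 4430 and 962 and of 2110 and 930.

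**Figure D3:**
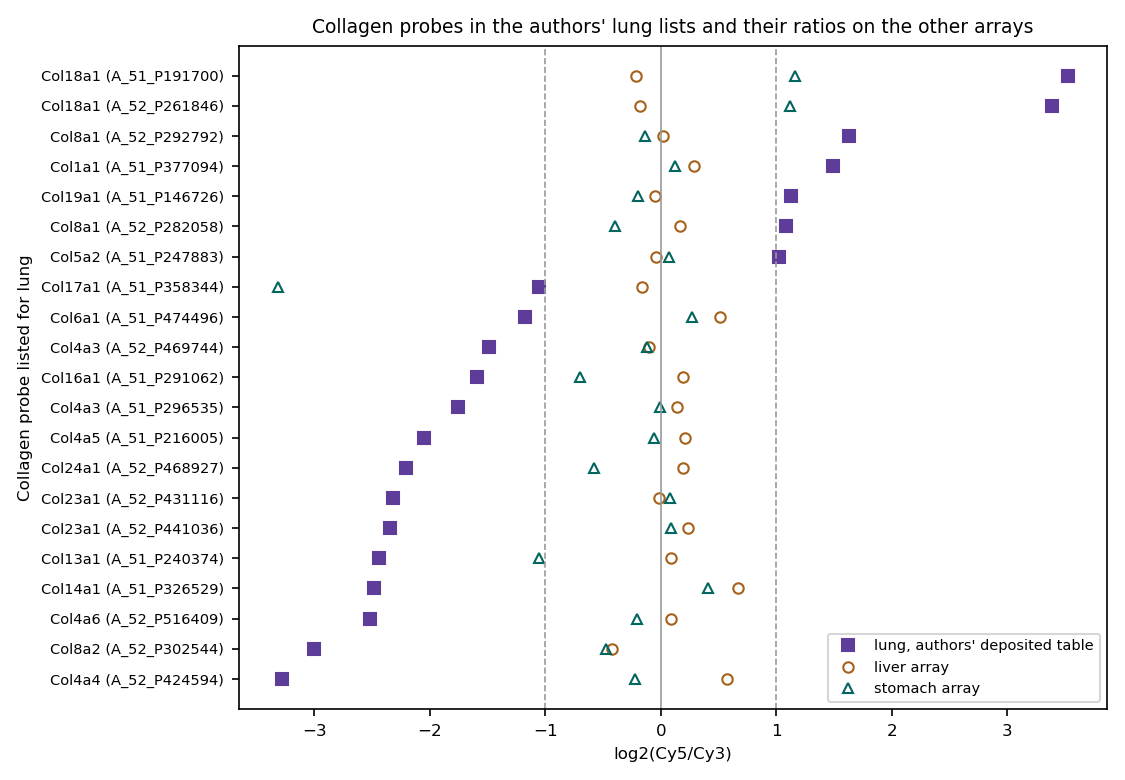
log2(Cy5/Cy3) of the 21 collagen probes in the lung lists of the authors' deposited table (squares), beside the ratios of the same probes on the liver (circles) and stomach (triangles) arrays, with dashed lines at 2-fold. The Col18a1 probes lie to the right in lung and stomach, and Col17a1 lies farther left in stomach, at -3.31, than in lung.

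Markers of other cell types were listed for lung too. All 8 endothelial markers are listed as Cy3-high in the authors' deposited table, with Cdh5 at -3.45 and -2.35 and Kdr at -3.26. Of 5 lung epithelium markers, 3 are listed as Cy3-high in the authors' deposited table. In the authors' deposited table these are the surfactant gene Sftpa1 at -4.45 and -4.12, Sftpb at -2.71 and the alveolar water channel gene Aqp5 at -3.23. Sftpc and Scgb1a1 are in neither lung list of the authors' deposited table. Over all gene spots, the authors' deposited table lists 9.78% as Cy3-high for lung. Of the fibroblast and stellate markers 5 of 10, and of the smooth muscle and pericyte markers 5 of 8, are Cy3-high in the authors' deposited table, and none of either list is Cy5-high. The part of these cells in the lung collagen values was not tested.

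Some collagens were on the same side in the stomach and lung lists of the authors' deposited table. In the authors' deposited table, Col13a1, Col16a1, Col17a1 and Col24a1 are Cy3-high in both organs, at 4 of the 6 collagen spots of the stomach list and 4 of the 14 of the lung list. Over all spots of the authors' deposited table, 420 are shared by these lists, 30.4% of the stomach list and 10.3% of the lung list. Col18a1 is Cy5-high in both organs in the authors' deposited table, at 2 of the 5 collagen spots of the stomach list and 2 of the 7 of the lung list, where 624 of all spots are shared, 37.6% and 27.3% of the lists, so that the Cy5-high share of collagens was near that of all spots. With 1 array per organ these overlaps are counts and carry no test.

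The collagens that the liver list shared with the other lists were single genes. Col3a1 is Cy5-high in liver and stomach in the authors' deposited table, and Col1a1 is Cy5-high in liver and lung there, at different probes. Of all Cy5-high liver spots in the authors' deposited table, 12.7% are Cy5-high in stomach and 9.5% in lung. Col14a1 is listed on opposite sides in the authors' deposited table, at 0.79 in liver and -2.48 in lung for the same probe, as are 170 of all 518 Cy5-high liver spots (32.8%). On the stomach array this probe had 132 in Cy3 and 124 in Cy5 and a ratio of 0.41.

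Some collagen genes are neighbours in the genome, by the RefSeq table of GRCm38.p6, and the type IV pairs are known to be transcribed away from a shared promoter. Col4a1 and Col4a2 on chromosome 8 had 0.28 and 0.08 in liver and -0.04 and 0.01 in stomach. Col4a3 and Col4a4 on chromosome 1 had 0.06 and 0.36 in liver and -0.10 and -0.09 in stomach, and both are Cy3-high for lung in the authors' deposited table. Col4a5 and Col4a6 on chromosome X had 0.21 and -0.01 in liver and -0.06 and -0.19 in stomach, and both are Cy3-high for lung in the authors' deposited table. In lung, the listed probes of both pairs in the authors' deposited table were thus on the Cy3 side. These were 2 of 3 Col4a3 probes, 1 of 2 Col4a4 probes, 1 of 3 Col4a6 probes and the 1 Col4a5 probe. The brightest Col4a4 and Col4a6 probes on the liver and stomach arrays are in no lung list of the authors' deposited table. Of other neighbours, Col3a1 and Col5a2 on chromosome 1 had 0.22 and -0.05 in liver and 0.15 and 0.07 in stomach, and Col6a1 and Col6a2 on chromosome 10 had 0.52 and 0.07 in liver and 0.27 and 0.17 in stomach.

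Lists of genes that make, trim and bind collagen had medians near 0 on both arrays. In liver none of the 24 synthesis and secretion genes reached 2-fold, and the median was 0.04. Sparc, which binds collagen, had 0.39, the collagen chaperone gene Serpinh1 0.38 and P4ha2, a subunit of prolyl hydroxylase, 0.37, while Plod1, a lysyl hydroxylase gene, had -0.29. In stomach the median was -0.06. Of 23 genes none was at least 2-fold Cy5-high, against 0.873% of all genes, and 2 were Cy3-high, against 1.42%. These were P4ha2 at -2.33 (scanner error 0.27) and P3h4 at -1.05 (SD 0.13 between 2 probes), and Ppib, a folding enzyme gene, had -0.56. For lung the authors' deposited table lists 7 of the 24 as Cy3-high, among them Serpinh1 at -1.80, Sparc at -1.33 and -1.18 and P3h4 at -1.04, and 1 as Cy5-high, Sec23a at 1.04. Over all gene spots, rather than genes, the authors' deposited table lists 9.78% as Cy3-high and 5.51% as Cy5-high.

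Of 13 measured genes for collagen processing and crosslinking, none reached 2-fold in liver or stomach, with medians of -0.13 and -0.03. Tgm2, a transglutaminase, was the lowest in liver at -0.78 (SD 0.41 between 3 probes), and Pcolce, which speeds the trimming of fibrillar chains, had -0.41. For lung the authors' deposited table lists the crosslinking enzyme gene Lox at 1.36 and Pcolce2, Pcolce and Pxdn, which crosslinks type IV collagen, at -4.05, -1.66 and -1.56. Collagen receptors were near 0, with medians of -0.01 over 10 in liver and 0.05 over 9 in stomach, and the lowest was Ddr1 at -0.42 in liver. For lung the authors' deposited table lists Itga2 at 1.73 and Itga1, Ddr2, Lair1 and Mrc2 as Cy3-high.

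Proteins that sit on fibrils had medians of 0.09 in liver and -0.13 in stomach over 14 genes. Dcn, whose protein decorin spaces fibrils, had 0.64 in liver and -0.48 in stomach, Lum 0.39 and -0.02, and Fn1, which hepatocytes also make, -0.64 and -0.29. Ogn, at -1.38, was the member past 2-fold in stomach, and no member passed it in liver. For lung the authors' deposited table lists Ogn at -4.78, Tnxb at -3.72 and Prelp at -2.83, with 5 of 14 Cy3-high, and Fn1 as Cy5-high at 1.27 and 1.51. Over all gene spots, the authors' deposited table lists 9.78% as Cy3-high and 5.51% as Cy5-high for lung.

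Among 16 basement membrane partners of type IV collagen, none reached 2-fold in liver or stomach, with medians of 0.00 and 0.09. In stomach the laminin gene Lamb3 had 0.79 and the syndecan gene Sdc1 0.75, both past 1.5-fold Cy5-high. Lamb3 encodes a chain of the laminin that, with Col17a1 and Col7a1, holds epithelium to its basement membrane, and its ratio lay on the opposite side from those collagens. For lung the authors' deposited table lists Lamb3 as Cy5-high at 1.34 and Lama2, Lama4 and Dag1 as Cy3-high. Of 12 genes of TGF-beta signalling and matrix induction, none reached 2-fold on either array, with medians of -0.11 and -0.04. Ccn2, a matrix-inducing factor, had 0.57 in liver and -0.49 in stomach, and Smad7 had 0.66 in stomach.

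**Figure D4:**
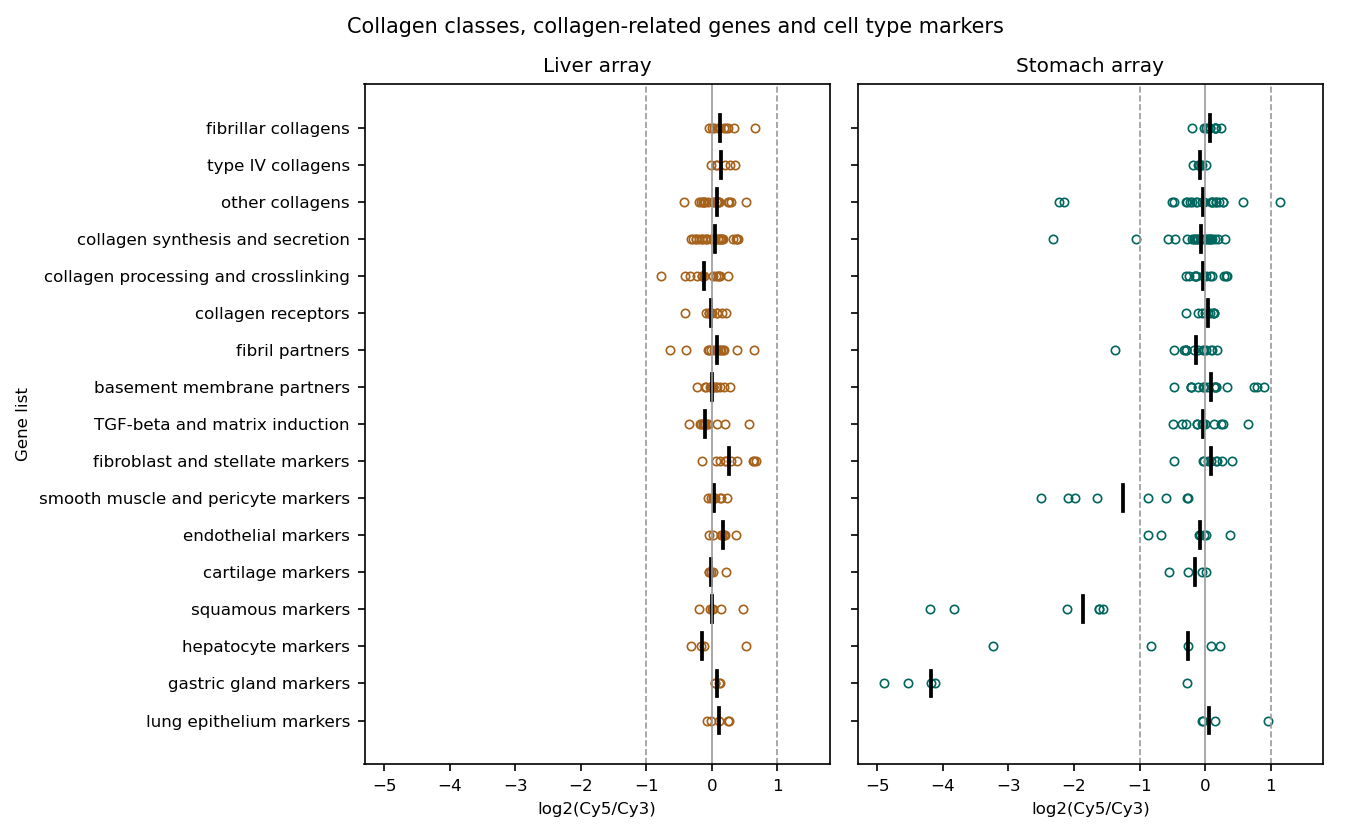
log2(Cy5/Cy3) of the genes in the collagen classes, collagen-related lists and cell type marker lists on the liver (left) and stomach (right) array; circles are genes, the black tick is the list's median, and dashed lines mark 2-fold. In liver the fibroblast and stellate markers have the highest median, at 0.26, and in stomach the squamous, gastric gland and smooth muscle markers lie to the Cy3 side, at medians of -1.86, -4.18 and -1.26.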

How the data were processed

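RNA of 3 tissue pairs (500 ng each, amplified with an Agilent linear amplification kit, per the labels' protocols) was hybridised to 2-colour Agilent arrays, 1 per organ. Agilent Feature Extraction 8.5.1.1 was used to read the scans, per the submitters' processing notes and the file headers. The deposited intensity columns, mean spot intensity and median local background, were not normalized by the authors, per the file headers. The deposited log10 ratio of red (Cy5) over green (Cy3) is the scanner software's, corrected for background and dye, per the file headers, and the deposited p-value of a spot comes from its error model. No source used here names the genome build behind the probe coordinates. The authors' deposited table holds that log10 ratio and 2 processed intensity columns for 6 lists, up and down per organ. At every listed liver and stomach spot its ratio equalled the scanner's (largest difference 0.0) and its signals the scanner's processed intensities, although the column notes call them raw, and listed spots had scanner p-values of at most 0.01. Lung spots were joined by spot number: their brightness on the log2 scale correlated with that of the same spots on the liver (Pearson r = 0.635) and stomach array (0.801), over 6352 spots. In the lung down list the signal columns change order, so signals were taken from the columns whose ratio gave the listed one within 0.01.

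In limma 3.58.1 under R 4.3.3, normexp with an offset of 50 removed background and a loess curve, with control spots at weight 0, centred the ratios of each array. The step was checked on simulated data, but only at brighter spots, so the check does not cover the dim collagen probes. Control spots and outlier flags were left out, and probes were kept if 1 channel or both stood well above background and not both were saturated. Spots of a probe were averaged, and a gene is the mean over its measured probes. The offset pulls dim ratios towards 0. Errors given are the SD of a gene's probes or, for single probes, that of the scanner's error model, and cover measurement only. Precision is limited by the number of arrays. Tables and figures were made with Python 3.11.15, numpy 2.4.6, pandas 2.3.3 and matplotlib 3.10.9.

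The collagens, the gene lists and the rules were chosen with earlier results of these data known. All 40 collagens were eligible to be named. Of other lists, the 3 highest and 3 lowest genes per array and any gene past 2-fold were, and further lung examples, and Aqp5, Pgc, Pcolce and Alb among them, were chosen after their values were seen. Values of some listed genes are not reported here. The lists share Dcn, Lum, Postn and Comp. Symbols were updated through RefSeq (GRCm38.p6), which named 23075 of 41174 probes by accession, 6587 by symbol and 3059 by synonym, and 8453 kept the file's name. By current symbol 3 more collagens, Col26a1, Col6a4 and Col6a6, would join. Alternatives changed the background correction, normalization, filter, probe choice, membership and lung threshold.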

Additional observations from a re-analysis of the deposited data

Results flagged for a closer look

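The same Col14a1 probe lay on opposite sides in the lists of 2 organs. In the authors' deposited table its log2 ratio of Cy5 to Cy3 was 0.79 in liver (1390 in Cy3 and 2410 in Cy5) and -2.48 in lung (3660 and 655). Of all 518 Cy5-high liver spots in the authors' deposited table, 170 (32.8%) are Cy3-high in lung. With 1 array per organ the difference between the organs was not tested, and the lung tumour was set against lung of a wild-type mouse whereas liver was set against tissue of the same transgenic mouse. The second Col14a1 probe is in neither list.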

How the results depend on the processing

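Col18a1, Col7a1 and Col17a1 stayed past 2-fold in stomach under all 7 other settings, whereas values near 0 moved with the normalization. With the scanner software's ratios, the liver count of 2-fold Cy5-high collagens rose from 0 to 2 (Col6a1 and Col10a1, both dim in Cy3) and the stomach count from 1 to 4 (Col6a3, Col14a1 and Col9a3 joined Col18a1). The stomach Cy3-high count rose from 2 to 3 with the scanner ratios (Col12a1) and with the brightest probe or the filter on both channels (Col13a1). With a normexp offset of 16 the liver count was 1 (Col6a1). The scanner ratios moved the medians of all, fibrillar and type IV collagens in liver to 0.24, 0.28 and 0.31 and of fibrillar collagens in stomach to 0.24. With median centring alone, the medians were 0.0454 for all (0.0331 over all genes), 0.0565 for type IV and -0.0577 for other collagens in liver, and 0.20 for fibrillar and 0.12 for type IV collagens in stomach. With the brightest probe of each gene the fibrillar median in liver was 0.19. At 4-fold, 1 of the 5 Cy5-high collagen genes of the authors' deposited lung lists remained (Col18a1), and 8 of the 12 Cy3-high genes did. The causes were not tested. Of 39 genes per array, 22 in liver and 21 in stomach kept their sign under every setting that gave a value, 7 settings for most genes and 6 for those dim in 1 channel.

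Over all genes, 68.4% of 2-fold calls were Cy5-high in liver and 38.1% in stomach, against 94.0% and 81.2% with median centring, 56.2% and 51.0% with the scanner ratios, and 55.8% and 41.3% with the smaller offset. The scanner ratios gave 540 and 420 liver genes and 1092 and 1050 stomach genes past 2-fold, against 39 and 18 and 221 and 359. No paired analysis was possible because each organ had 1 array. Signals of most collagen probes lay near background, where small ratios could not be resolved.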

Other observations

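A pair of Col2a1 probes overlapped by 40 of 60 bases (chromosome 15, 97979237 to 97979296 and 97979257 to 97979316) and read differently. In liver their raw signals were 191 in Cy3 and 228 in Cy5 for the first and 1150 and 1650 for the second, with ratios of 0.43 and -0.03. In stomach they were 239 and 466 against 670 and 940, with ratios of 0.59 and -0.41, so that the probes lay on opposite sides. The authors' deposited table lists only the first of them, as Cy5-high in stomach. No other collagen probes overlapped.

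A similar contrast was seen between Col4a4 probes. One had 212 in Cy3 and 303 in Cy5 in liver and a ratio of 0.57, and the other 593 and 887 and a ratio of 0.14. The first of them is the probe at -3.28 for lung in the authors' deposited table, while the brighter one is in no lung list of the authors' deposited table.

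Of the 78 collagen probes, 66 covered 60 bases of the genome and 11 spanned more than 100.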
